A study of Mus musculus with 12 samples.

Results

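The genes described here encode the CD3 chains of the T cell receptor complex (Cd3d, Cd3e, Cd3g), the coreceptors CD4 and CD8 (Cd4, Cd8a, Cd8b1), the kinases that act next to the receptor (Lck, Zap70) and a pair of T cell surface molecules that modulate its signal (Cd2, Cd5). All probe sets that carry only the symbol of 1 of these 10 genes were taken. They numbered 12 of 20380 probe sets with 1 symbol and stood for 9 of 12393 genes. Lck had no such probe set and was not analysed here. The tumours were grown from C26, a colon carcinoma line of the mouse, under the skin of 12 Balb/c mice in 3 groups of 4. The first group received CP-Dox, doxorubicin attached to a chimeric polypeptide carrier, the second free doxorubicin (Dox), and the third phosphate-buffered saline (PBS). All mice were 6 weeks old by the labels, were treated on day 8 after inoculation, when tumours measured about 50 mm3, and gave their tumours 48 h later. The labels name no immunodeficient strain. A group given only the carrier is missing from the labels, so drug and carrier cannot be told apart. No source used here states the dose.

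The T cell receptor recognizes peptides on MHC molecules through its alpha and beta chains, and the CD3 chains carry the signal into the cell. CD4 binds MHC class II and CD8 binds MHC class I, and both bring the kinase LCK to the receptor. LCK phosphorylates the tails of the CD3 chains, to which the kinase ZAP-70 then binds. In tumours these genes are read mainly as a sign of infiltrating T cells, although in mice some dendritic cells also express Cd8a or Cd4. In bulk tumours, fewer T cells and less RNA per T cell cannot be told apart.

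The CD3 genes lie together on mouse chromosome 9 (GRCm38.p6, RefSeq), and their starts are shown because their signals moved closely together over the tumours. Cd2, on chromosome 3, moved as closely with them (Pearson's r of 0.97 to 0.98), and a part of the shared locus was not tested. Cd3g (chr9:44969572-44980431, minus strand) and Cd3d (chr9:44981769-44987052, plus strand) are transcribed away from each other, and Cd3e (chr9:44998735-45009663, minus strand) lies beyond Cd3d. By the starts of the promoter entries, which differ slightly from the ends of these gene spans, Cd3g and Cd3d start 1355 bases apart and Cd3d and Cd3e 27825. The promoter of Cd8a, on chromosome 6, is shown as that of a coreceptor. Of the 10 genes, 7 had an entry, and Cd4, Cd8b1 and Cd2 had none. Each sequence runs from 250 bases before to 50 after the start, 5′ to 3′ on the gene's strand. The regions are chr9:44980382-44980681 for Cd3g, chr9:44981536-44981835 for Cd3d, chr9:45009562-45009861 for Cd3e and chr6:71373177-71373476 for Cd8a. Capitals mark matches on either strand to CANNTG, the core of sites for E proteins, and to GGAAGT, a core of sites for Ets factors.
Cd3g: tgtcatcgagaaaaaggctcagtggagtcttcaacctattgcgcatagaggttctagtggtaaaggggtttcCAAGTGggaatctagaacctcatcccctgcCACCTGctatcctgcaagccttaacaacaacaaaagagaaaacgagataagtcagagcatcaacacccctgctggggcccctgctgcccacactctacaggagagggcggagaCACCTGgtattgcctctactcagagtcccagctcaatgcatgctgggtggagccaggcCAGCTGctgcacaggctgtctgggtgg
Cd3d: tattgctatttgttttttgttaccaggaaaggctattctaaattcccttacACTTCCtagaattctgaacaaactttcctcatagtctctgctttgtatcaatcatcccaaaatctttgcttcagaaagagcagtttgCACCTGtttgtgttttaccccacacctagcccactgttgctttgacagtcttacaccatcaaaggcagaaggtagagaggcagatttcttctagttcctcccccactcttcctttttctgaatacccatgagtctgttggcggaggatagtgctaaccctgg
Cd3e: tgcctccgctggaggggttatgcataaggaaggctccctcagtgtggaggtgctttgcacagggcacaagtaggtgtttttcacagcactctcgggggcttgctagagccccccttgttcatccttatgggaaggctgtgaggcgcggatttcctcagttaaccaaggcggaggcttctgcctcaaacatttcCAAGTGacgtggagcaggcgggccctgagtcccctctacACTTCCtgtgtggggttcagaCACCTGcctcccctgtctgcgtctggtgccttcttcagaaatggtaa
Cd8a: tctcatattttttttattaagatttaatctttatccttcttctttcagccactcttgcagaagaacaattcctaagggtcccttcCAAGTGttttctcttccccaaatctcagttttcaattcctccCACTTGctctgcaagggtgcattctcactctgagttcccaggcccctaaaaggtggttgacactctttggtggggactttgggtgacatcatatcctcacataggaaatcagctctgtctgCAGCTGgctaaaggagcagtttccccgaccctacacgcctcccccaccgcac
The Cd3g window held 4 matches to CANNTG, Cd8a 3, Cd3e 2 and Cd3d 1, and Cd3d and Cd3e held 1 match to GGAAGT each. None of these matches overlapped another. CANNTG was found in 72.3% and GGAAGT in 23.8% of 32851 promoters of the same length. TGTGGT, a core of Runx sites, and TATAAA, the TATA box, were also searched on both strands and were in none of these 4 windows, against 16.8% and 13.6% of all promoters. These are letter matches, which do not show that a factor binds.

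Levels are given as log2 RMA signals, on which a difference of 1 is a 2-fold change, and each difference is followed by ± its standard error from limma. Levels of different probe sets are not set against each other. CP-Dox replicate 2 stood apart from its group over all genes, since its array correlated with the rest of the group at a mean r of 0.948. The same mean was 0.971 to 0.977 for the other CP-Dox tumours, 0.983 to 0.990 within Dox and 0.981 to 0.983 within PBS. Markers of skin and muscle were uneven over the tumours. The mean of 15 keratinocyte markers was 2.72 and 3.89 above the PBS mean in CP-Dox replicates 1 and 3 and at most 0.05 above it elsewhere. Skeletal muscle markers (16 of 16 measured) ranged from -0.52 to 1.75 in CP-Dox, from -2.47 to 1.58 in Dox and from -2.54 to 3.36 in PBS, relative to the PBS mean. Among epithelial genes, which were named after the data were seen, the intestinal genes Cdx2 and Vil1 had no value above 5.44 and 4.62. The keratin gene Krt8 was at 9.97, 12.05, 9.17 and 9.21 in CP-Dox, from 10.04 to 11.44 in Dox and from 9.47 to 11.28 in PBS tumours. No detection calls were given, so that presence cannot be read from a level.

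None of the 9 genes passed between CP-Dox and PBS tumours, between Dox and PBS tumours, or between CP-Dox and Dox tumours at an adjusted p under 0.05 (limma), and none did at an unadjusted p under 0.05. What the genes showed was a wide and shared spread between tumours of 1 group. CP-Dox replicate 2 had the lowest signal of all 12 tumours in 11 of 12 probe sets, and CP-Dox replicate 4 had the highest in 8. Over all 20380 probe sets these tumours held the lowest and the highest place in 12.4% and 8.17%. PBS tumours also differed among themselves, with replicates 3 and 4 both above replicates 1 and 2 in 12 of 12 probe sets, against 24.5% of all probe sets.

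**Figure D1:**
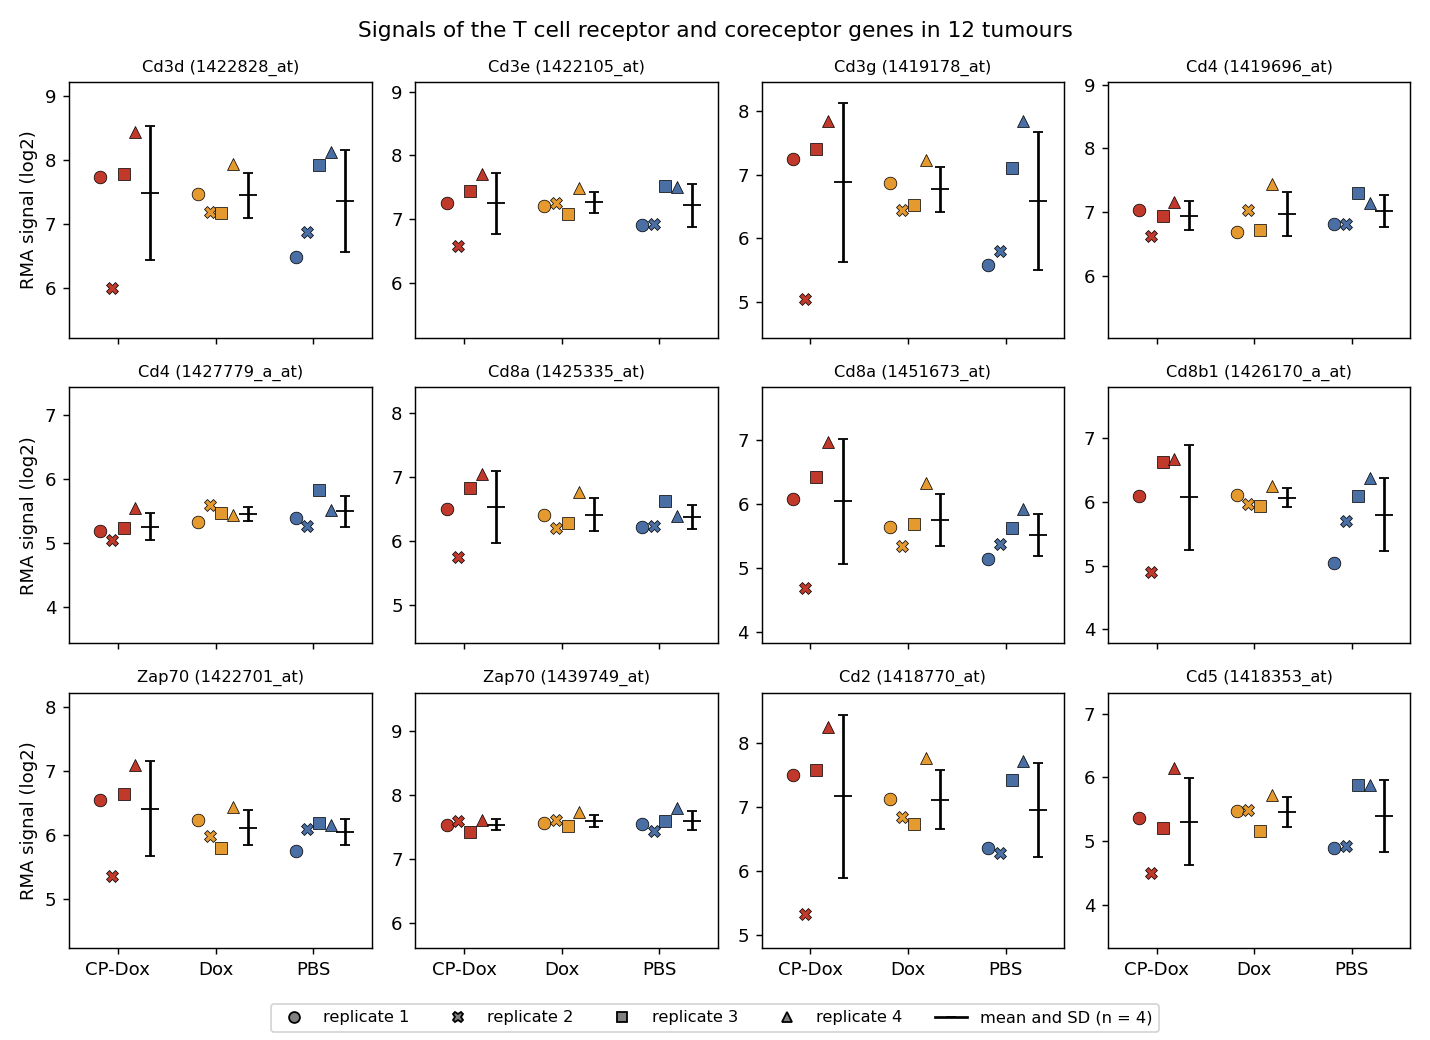
RMA signal (log2, vertical axis, each panel 4 units high) of the 12 probe sets in the CP-Dox, Dox and PBS tumours, 1 point per tumour with a symbol per replicate, and the mean and SD of 4 tumours beside it. CP-Dox replicate 2 (cross) is the lowest of 12 points in 11 panels, and the groups overlap in all panels.

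Cd3d, which encodes the delta chain, was at 7.74, 5.99, 7.78 and 8.45 in CP-Dox replicates 1 to 4, at 7.48, 7.20, 7.18 and 7.94 in Dox replicates 1 to 4, and at 6.48, 6.88, 7.93 and 8.13 in PBS replicates 1 to 4. The Dox tumours thus lay within the range of the PBS tumours, and the CP-Dox tumours reached beyond it at both ends. The mean was 7.49 ± 1.05 in CP-Dox, 7.45 ± 0.36 in Dox and 7.36 ± 0.80 in PBS (SD, n = 4 each). Cd3g, the gamma chain gene, spread further, with 7.24, 5.05, 7.40 and 7.84 in CP-Dox, 6.86, 6.45, 6.52 and 7.23 in Dox, and 5.58, 5.80, 7.11 and 7.84 in PBS tumours, in the order of the replicates. CP-Dox replicate 2 and PBS replicates 1 and 2 were the low tumours here. For Cd3e, the epsilon chain gene, the values were 7.26, 6.58, 7.45 and 7.71 in CP-Dox, 7.22, 7.26, 7.09 and 7.49 in Dox, and 6.91, 6.93, 7.52 and 7.51 in PBS tumours. The order of tumours was nearly that of the other CD3 chains, on a smaller scale.

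Between CP-Dox and PBS tumours, the difference was 0.13 ± 0.50 for Cd3d (95% confidence interval -0.95 to 1.22), 0.29 ± 0.61 for Cd3g (-1.04 to 1.63) and 0.03 ± 0.23 for Cd3e (-0.47 to 0.53). The interval was narrowest for Cd3e, while that of Cd3g includes 2-fold changes in either direction. The sign for Cd3e turned with another quantile normalization (-0.021) and with median centring (-0.023). Between Dox and PBS tumours, the CD3 differences were 0.09 ± 0.50 for Cd3d, 0.18 ± 0.61 for Cd3g and 0.05 ± 0.23 for Cd3e. None of these differences passed (limma adjusted p from 0.791 to 0.942 for CP-Dox and of 0.995 for Dox against PBS). The standard errors are the same in both comparisons because the fit shares the spread of all groups, that of CP-Dox replicate 2 included. Without that tumour those of Dox against PBS were 0.35 for Cd3d, 0.43 for Cd3g and 0.17 for Cd3e, with the differences unchanged.

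The coreceptor genes did not all behave alike over the tumours. Cd8a (probe set 1451673_at) was at 6.08, 4.68, 6.43 and 6.97 in CP-Dox, 5.65, 5.35, 5.68 and 6.33 in Dox, and 5.14, 5.38, 5.62 and 5.92 in PBS tumours. CP-Dox replicates 1, 3 and 4 lay above all PBS tumours and replicate 2 below them all. The other Cd8a probe set (1425335_at), the brighter of the pair, had 6.50, 5.76, 6.83 and 7.06 in CP-Dox, 6.41, 6.20, 6.28 and 6.77 in Dox, and 6.23, 6.24, 6.63 and 6.40 in PBS tumours. Here CP-Dox replicate 1 lay inside the PBS range. Cd8b1, the beta chain gene of CD8, had 6.09, 4.91, 6.63 and 6.67 in CP-Dox, 6.11, 5.96, 5.94 and 6.25 in Dox, and 5.04, 5.69, 6.08 and 6.38 in PBS tumours. CP-Dox replicates 3 and 4 exceeded every PBS tumour, and CP-Dox replicate 2 was the lowest again.

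Cd4 varied least between tumours among the coreceptors. Its brighter probe set (1419696_at) was at 7.04, 6.63, 6.95 and 7.17 in CP-Dox, 6.69, 7.04, 6.73 and 7.44 in Dox, and 6.82, 6.81, 7.31 and 7.15 in PBS tumours. CP-Dox replicate 2 lay only 0.41 below the median of the other CP-Dox tumours for Cd4, compared with 1.75 and 1.08 for the Cd8a probe sets and 1.72 for Cd8b1. The dimmer Cd4 probe set (1427779_a_at) ranged from 5.05 to 5.54 in CP-Dox, from 5.32 to 5.60 in Dox and from 5.26 to 5.82 in PBS tumours. These smaller ranges are differences in signal, and a probe set near background shows less of a change. By its mean over all tumours, 6.98, the brighter Cd4 probe set was not among the dimmest genes, which lay below 6.77. The brighter Cd8a probe set and that of Cd8b1, at 6.44 and 5.98, were among them. Their SD over all tumours was 0.35 and 0.55, against 0.25 for the brighter Cd4 probe set. Since levels of different probe sets cannot be set against each other, these means do not show which probe set is nearer its background. Why Cd4 varied less was not tested. None of the coreceptor differences between CP-Dox and PBS passed: they were 0.16 ± 0.24 and 0.52 ± 0.40 for the Cd8a probe sets, 0.27 ± 0.37 for Cd8b1, and -0.08 ± 0.18 and -0.24 ± 0.14 for the Cd4 probe sets (limma adjusted p from 0.299 to 0.827).

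Zap70 gave conflicting probe sets. Probe set 1422701_at had 6.55, 5.36, 6.64 and 7.10 in CP-Dox, 6.24, 5.99, 5.80 and 6.43 in Dox, and 5.75, 6.10, 6.19 and 6.16 in PBS tumours. CP-Dox replicates 1, 3 and 4 exceeded all Dox and PBS tumours, and replicate 2 lay below them all. Probe set 1439749_at, which has the higher mean and stood for the gene in the fit, ranged from 7.41 to 7.61 in CP-Dox, from 7.51 to 7.73 in Dox and from 7.44 to 7.80 in PBS tumours. It was the only one of the 12 in which CP-Dox replicate 2 was not the lowest. Over the 12 tumours the correlation between the pair was 0.01, against 0.94 for the pair of Cd8a and 0.61 for the pair of Cd4 probe sets. The difference between CP-Dox and PBS was 0.36 ± 0.30 for 1422701_at and -0.06 ± 0.09 for 1439749_at (limma adjusted p = 0.490 and 0.725 over all probe sets).

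Cd2, which encodes an adhesion and costimulatory receptor of T and natural killer cells, had 7.51, 5.32, 7.58 and 8.26 in CP-Dox, 7.12, 6.84, 6.73 and 7.76 in Dox, and 6.36, 6.28, 7.43 and 7.73 in PBS tumours. It had the highest SD of the 12 probe sets in CP-Dox, 1.28, and CP-Dox replicate 2 was 2.26 below the median of the other CP-Dox tumours, a 4.79-fold gap. Cd5, which encodes a receptor that dampens the signal of the T cell receptor, had 5.36, 4.50, 5.21 and 6.16 in CP-Dox, 5.47, 5.49, 5.16 and 5.73 in Dox, and 4.89, 4.93, 5.88 and 5.88 in PBS tumours. The groups overlapped for both genes, and the differences between CP-Dox and PBS were 0.22 ± 0.56 for Cd2 and -0.09 ± 0.33 for Cd5 (limma adjusted p = 0.834 and 0.891).

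Counted over all 9 genes, 6 were higher on average in CP-Dox than in PBS tumours (44.1% of all genes were), with a median difference of 0.13, beside -0.04 over all 12393 genes. None passed the threshold, where 5.58% of all genes did and 23.5% had an unadjusted p under 0.05, and in none were the groups without overlap, where 12.1% of all genes were. In Dox against PBS tumours 8 were higher (51.4% of all genes), with a median of 0.07 beside 0.0046. None passed, where 0% of all genes did and 4.5% had an unadjusted p under 0.05, and none were without overlap, against 3.84% of all genes. In CP-Dox against Dox tumours 5 were higher (44.3% of all genes), with a median of 0.0091 beside -0.03. None passed, against 0.226% of all genes and 16.1% at an unadjusted p under 0.05, and none were without overlap, against 9.63%. These comparisons share the PBS, Dox or CP-Dox tumours and are not independent of each other. The lack of calls does not show equal levels, since the SD within groups was wide: its median over the 12 probe sets was 0.71 in CP-Dox, 0.27 in Dox and 0.34 in PBS, against 0.18, 0.15 and 0.18 over all probe sets.

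CP-Dox and Dox contain the same drug with and without the carrier. Between their tumours the difference, CP-Dox minus Dox, was 0.04 for Cd3d (95% confidence interval -1.04 to 1.13), -0.01 for Cd3e (-0.51 to 0.49), 0.11 for Cd3g (-1.22 to 1.45), -0.03 for Cd4 (-0.43 to 0.37), 0.12 for Cd8a (-0.41 to 0.65) and 0.0091 for Cd8b1 (-0.80 to 0.82). With median centring Cd3d was at -0.012 and Cd8b1 at -0.045, and with another quantile normalization Cd8b1 was at -0.0031. These intervals are too wide to say that the 2 forms of the drug left the genes alike. Whether their doses matched is not known here.

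**Figure D2:**
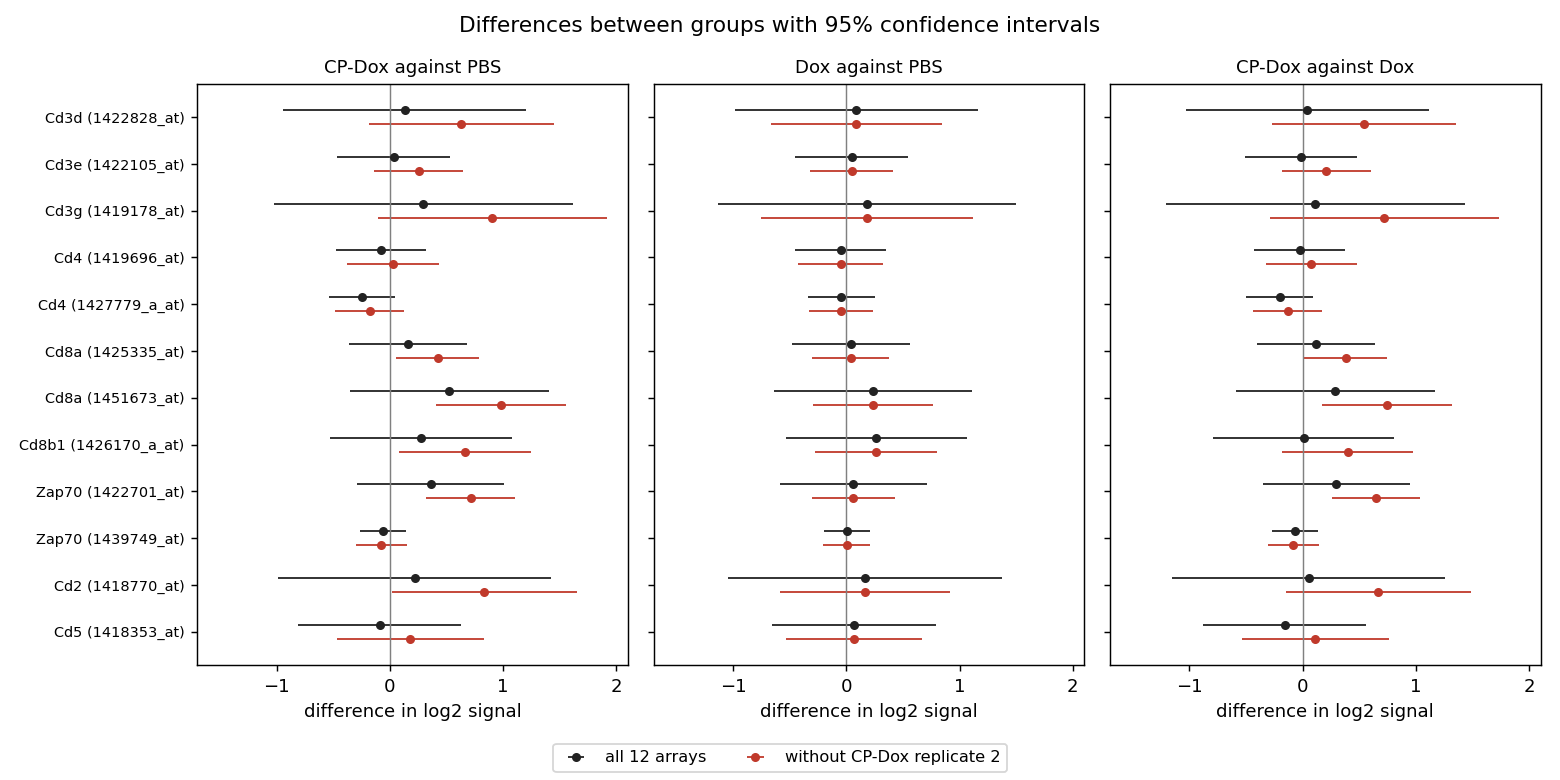
Difference in log2 signal (horizontal axis) for each of the 12 probe sets in the 3 comparisons (CP-Dox with PBS, Dox with PBS, CP-Dox with Dox), with the 95% confidence interval of the limma fit over all probe sets, from all 12 arrays (black) and without CP-Dox replicate 2 (red). With all arrays every interval includes 0.

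Without CP-Dox replicate 2 the remaining 3 CP-Dox tumours had higher means than PBS in 8 of the 9 genes (41.6% of all genes did), with a median difference of 0.42 (-0.06 over all genes). Still none passed, where 19.1% of all 12393 genes did, and 3 had an unadjusted p under 0.05, as did 33.5% of all genes. Those were Cd8a at 0.42 ± 0.17, Cd8b1 at 0.66 ± 0.27 and Cd2 at 0.83 ± 0.38 (limma adjusted p = 0.103, 0.107 and 0.145). The CD3 genes were at 0.63 ± 0.38 for Cd3d, 0.91 ± 0.47 for Cd3g and 0.26 ± 0.18 for Cd3e, and Cd4 was at 0.03 ± 0.18 (limma adjusted p from 0.199 to 0.931). Over all probe sets, the second one of Cd8a (1451673_at) rose by 0.98 ± 0.26 and that of Zap70 (1422701_at) by 0.71 ± 0.18 in CP-Dox against PBS tumours (limma adjusted p = 0.0256 and 0.0199). These 2 calls of 12 were set in a background of 17.6% of all probe sets, so that the share is near the background. Against Dox tumours, Zap70 (1422701_at) rose by 0.65 ± 0.18 without that tumour (limma adjusted p = 0.0466, background 8.97%), and no other probe set of the genes passed. By genes, none of the 9 passed against Dox, where 9.28% of all genes did. Leaving out the tumour that lies lowest favours such calls by construction.

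Set against the range of the 4 PBS tumours, CP-Dox replicate 4 was above it in 8 of the 12 probe sets, replicate 3 in 4, replicate 1 in 2 and replicate 2 in 0. CP-Dox replicate 2 was below it in 11, while replicates 1, 3 and 4 were below it in 1, 2 and 0. Over all probe sets between 20.1% and 26.1% were above and between 25.2% and 34.5% below the PBS range in the 4 tumours. Among the Dox tumours, replicate 4 was above the PBS range in 5 probe sets, replicate 1 in 1 and replicates 2 and 3 in 0. Dox replicates 1, 2 and 3 were below it in 1 probe set each and replicate 4 in 0. Over all probe sets between 14.9% and 20.5% were above and between 13.7% and 22.2% below the PBS range in the 4 Dox tumours, so that most of all probe sets lay inside it too.

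The genes moved together over the tumours. Pearson's r between pairs of Cd3d, Cd3e, Cd3g and Cd2 was between 0.95 and 0.98 over the 12 arrays, and between 0.92 and 0.97 without CP-Dox replicate 2. Over all 66 pairs of probe sets the median was 0.80, and 0.73 without that tumour. The probe sets of Cd8a and Cd8b1 had correlations of 0.85 to 0.94. Those of Cd4 followed the mean of the other probe sets less closely (0.73 and 0.48), and Zap70 (1439749_at) least, at 0.31. Arrays share the quantile normalization and the tumours' makeup, and the values are descriptions of these 12 tumours.

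**Figure D3:**
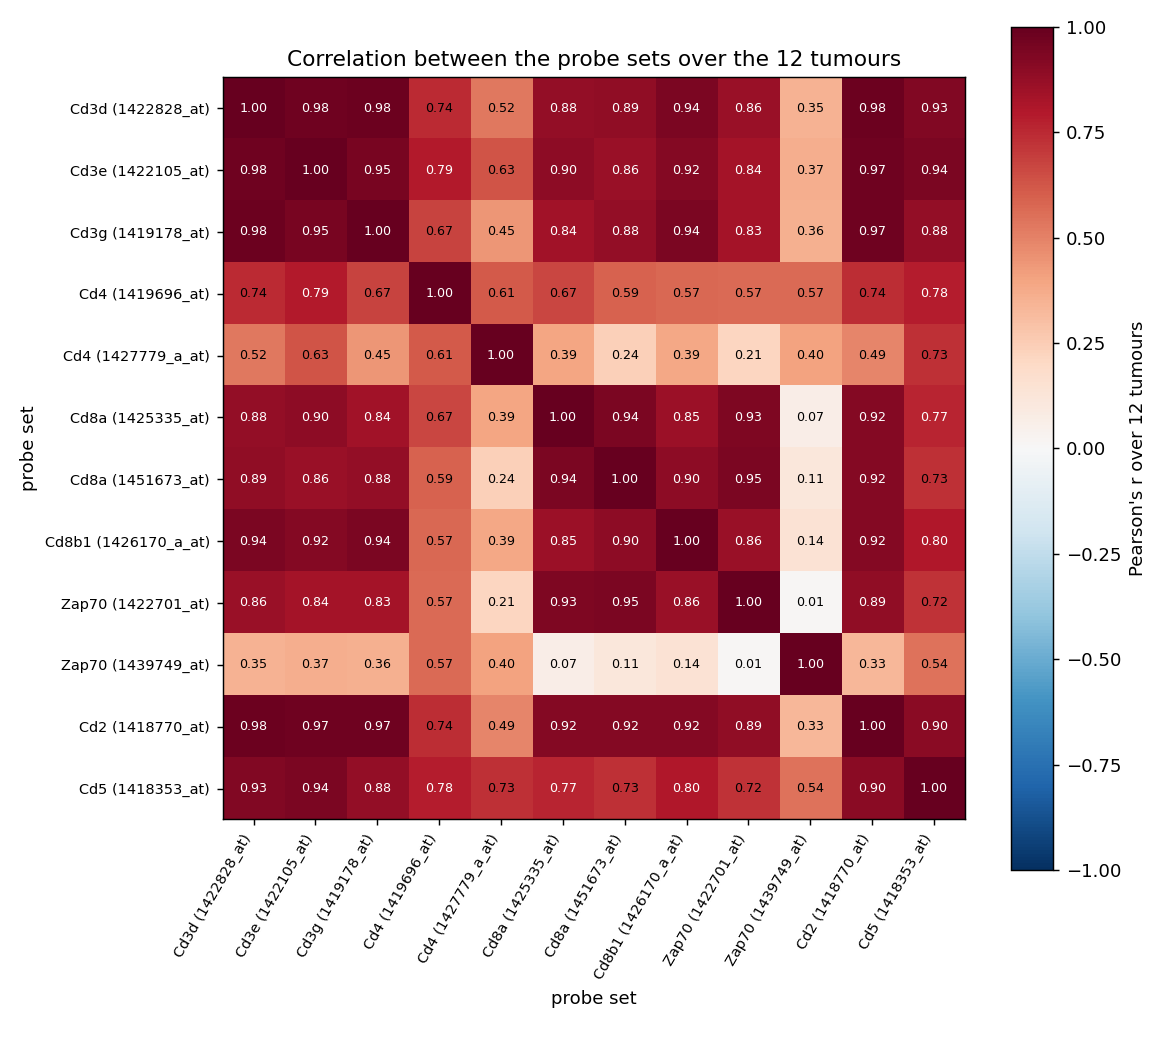
Pearson's r between the 12 probe sets over the 12 tumours, with probe sets on both axes and the value in each cell. Cd3d, Cd3e, Cd3g and Cd2 form a block of 0.95 to 0.98, while 1 of the Zap70 probe sets has at most 0.57 with any other.

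Among 3235 other genes with an SD of at least 0.3, 10 were taken whose pattern over the 12 arrays was most like the mean of the 9 genes. A probe set annotated as Trav9d-3, a T cell receptor alpha variable segment, came first (Pearson's r = 0.99, Spearman's rho = 1). Cd27 and Icos, costimulatory receptors of T cells, followed at 0.98 and 0.97, and Ctse, which encodes the protease cathepsin E, was at 0.97. The others were Stk26, a kinase gene, and Batf, a transcription factor gene of activated lymphocytes (both 0.96), Gimap6 and Gimap7, GTPase genes of lymphocytes (0.96 and 0.95), Cd247, the zeta chain of the receptor complex (0.95), and Ltb, a lymphotoxin gene (0.95). Without CP-Dox replicate 2 these 10 correlations were between 0.92 and 0.99. Cd247 had 5.87, 4.60, 5.92 and 6.52 in CP-Dox, 5.81, 5.17, 5.57 and 5.99 in Dox, and 4.93, 5.21, 5.68 and 6.07 in PBS tumours. It was lowest in CP-Dox replicate 2 and highest in CP-Dox replicate 4, and its groups overlapped.

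A list of other genes of the receptor and its signalling had 33 of 46 measured. Of these, 2 rose and none fell in CP-Dox against PBS tumours, with a median difference of 0.27. Ptpn22, which encodes a phosphatase that restrains signalling of the receptor, rose by 1.48 ± 0.22, and Thy1, a surface protein of T cells and of fibroblasts, rose by 0.74 ± 0.19 (limma adjusted p = 0.00536 and 0.0460). Over all genes 2.35% rose. The count was 1 or 2 when any single array other than CP-Dox replicate 2 was left out. Next by p were Fyn, a Src family kinase gene (0.38 ± 0.14), and Sit1 (-0.25 ± 0.11), which did not pass (limma adjusted p = 0.140 and 0.184). In Dox against PBS tumours none of the 33 passed, with Ptpn22 at 0.72 ± 0.22 (limma adjusted p = 0.995), and in CP-Dox against Dox tumours none passed either.

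Without CP-Dox replicate 2, 14 of the 33 signalling genes rose and none fell in CP-Dox against PBS tumours, where 9.9% of all genes rose. The mean of the 33 genes, relative to PBS, was -0.37 in that tumour and 0.32 to 0.67 in the other CP-Dox tumours. Leaving it out thus favours such rises by construction. The genes that rose are given with this limit. By p the 14 genes were led by Fyn at 0.55 ± 0.07, Ptpn22 at 1.35 ± 0.22, Txk, a Tec family kinase gene, at 1.10 ± 0.21, and Lcp2, which encodes the adaptor SLP-76, at 1.27 ± 0.25 (limma adjusted p from 0.00120 to 0.00693). Against Dox tumours 4 of the 33 rose without that tumour, where 4.77% of all genes did. Of 21 measured genes of T cell development and trafficking, none passed with all arrays in any of the 3 comparisons, and 3 rose without CP-Dox replicate 2, among them Bcl11b, a transcription factor gene of the T cell lineage, at 0.69 ± 0.19 (limma adjusted p = 0.0302).

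Other leukocyte genes varied with the T cell genes in part. The mean of the 9 genes, relative to its mean in PBS tumours, was 0.22, -0.89, 0.33 and 0.73 in CP-Dox replicates 1 to 4, 0.07, -0.03, -0.13 and 0.45 in Dox replicates 1 to 4, and -0.49, -0.36, 0.35 and 0.50 in PBS replicates 1 to 4. Natural killer cell markers (9 of 13 measured) were at 0.85, -1.42, 1.01 and 1.34 in CP-Dox, from -0.46 to 0.87 in Dox and from -0.61 to 0.58 in PBS tumours. Cytotoxic effector genes (8 of 8), which T and natural killer cells share, were at 1.30, -1.87, 1.40 and 1.91 in CP-Dox, from -0.48 to 1.15 in Dox and from -0.50 to 0.42 in PBS tumours. Both lists, which share the genes Gzma and Nkg7, had the same low and high tumours in CP-Dox as the T cell genes, with a wider spread. None of their members passed in limma in the 3 comparisons with all arrays, and 1 natural killer cell marker had an unadjusted p under 0.05 in CP-Dox against PBS and 1 in CP-Dox against Dox.

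Interferon-stimulated genes (21 of 23 measured) were at 1.68, -1.88, 1.63 and 1.60 in CP-Dox, from -0.58 to 0.85 in Dox and from -0.34 to 0.69 in PBS tumours. They divided the CP-Dox tumours as the T cell genes did, but PBS replicate 2, which was low for the T cell genes, was the highest PBS tumour for them. Macrophage markers (13 of 13) were lowest in CP-Dox replicate 2, at -0.60, and lay between 0.14 and 0.44 in the other CP-Dox tumours, between 0.14 and 0.44 in Dox and between -0.12 and 0.13 in PBS tumours. Markers of B cells (8 of 10) stayed within -0.16 to 0.14 in CP-Dox, 0.07 to 0.14 in Dox and -0.11 to 0.12 in PBS tumours. Dendritic cell markers (8 of 10) ranged from -0.09 to 0.16 in CP-Dox, from -0.18 to -0.01 in Dox and from -0.26 to 0.35 in PBS tumours. Gamma delta T cell markers (4 of 14) ranged from -0.10 to 0.15 in CP-Dox, from 0.01 to 0.28 in Dox and from -0.19 to 0.19 in PBS tumours. Neutrophil markers (9 of 11) were at 1.01, 0.17, 0.999 and 1.32 in CP-Dox, from -0.07 to 0.97 in Dox and from -0.13 to 0.14 in PBS tumours. With all arrays, 2 of the 9 neutrophil markers rose in CP-Dox against PBS tumours (limma), and no gene of the other marker lists passed in that comparison.

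Without CP-Dox replicate 2, genes of these lists also passed in CP-Dox against PBS tumours (limma), beside the 14 of 33 signalling genes. Over all genes 19.1% passed and 9.9% rose. Of the interferon-stimulated genes 20 of 21 rose, of the cytotoxic effector genes 6 of 8, of the natural killer cell markers 5 of 9, of the neutrophil markers 5 of 9 and of the keratinocyte markers 8 of 15. Among 13 macrophage markers 4 rose and 1 fell, among 8 B cell and 8 dendritic cell markers 1 each rose, and of 4 gamma delta T cell and 16 muscle markers none passed. Against Dox tumours, 13 interferon-stimulated genes, 2 cytotoxic effector genes, 1 natural killer cell marker, 1 neutrophil marker and 2 keratinocyte markers rose and 1 macrophage marker fell without that tumour, beside 4 signalling genes that rose. Over all genes 9.28% passed and 4.77% rose against Dox. Where a list was lowest in CP-Dox replicate 2, leaving out that tumour favours rises by construction. The part of the listed cell types in the T cell gene values was not tested.

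**Figure D4:**
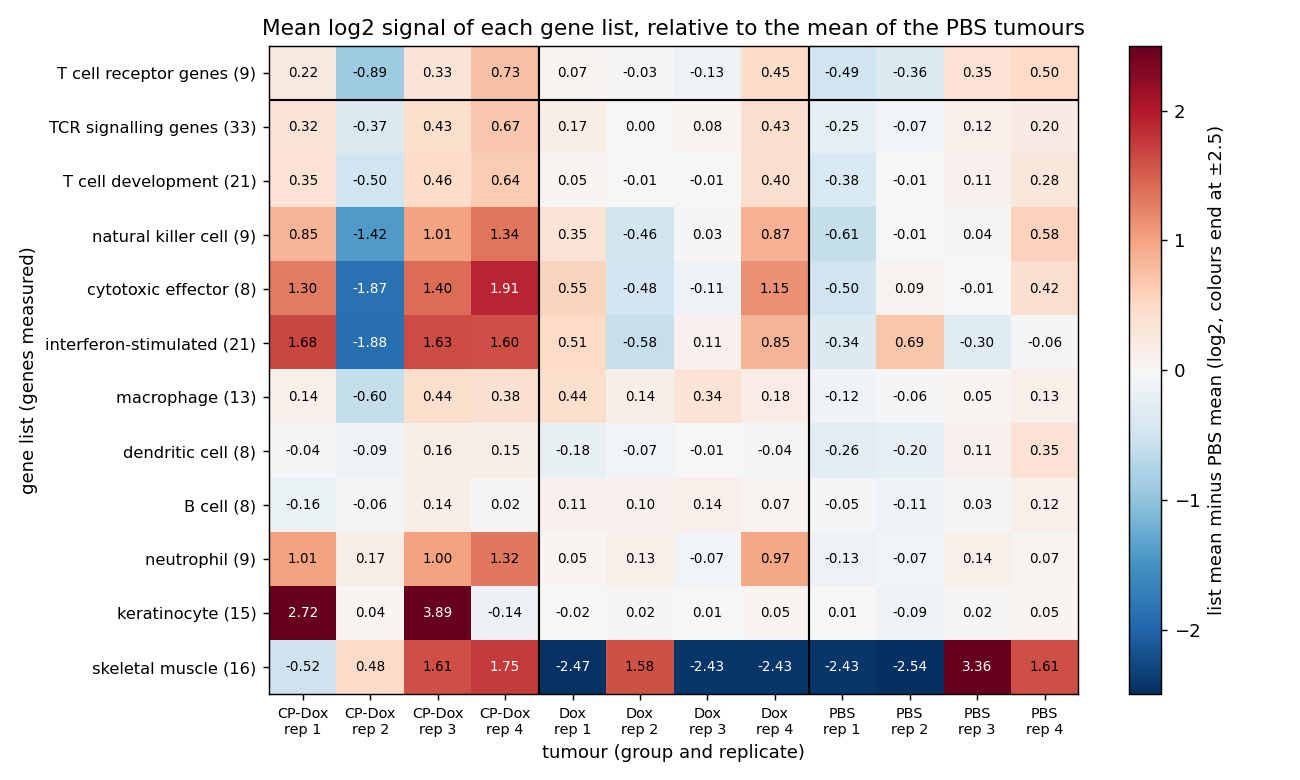
Mean log2 signal of each gene list (rows, with the number of genes measured) minus its mean over the PBS tumours, in each of the 12 tumours (columns: CP-Dox, Dox, PBS), with the value in each cell. The T cell genes in the top row are lowest in CP-Dox replicate 2 (-0.89), where natural killer, cytotoxic and interferon-stimulated genes are also lowest.

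The low and high PBS tumours also differed in muscle. Skeletal muscle markers were at -2.43 and -2.54 in PBS replicates 1 and 2, where the T cell genes were low, and at 3.36 and 1.61 in PBS replicates 3 and 4, where they were high. The same order was not seen in Dox tumours: replicate 4, with the highest T cell gene mean, had muscle markers at -2.43, and replicate 2, with muscle markers at 1.58, had a T cell gene mean of -0.03. In CP-Dox tumours keratinocyte markers were high in replicates 1 and 3 and at -0.14 in replicate 4, which had the highest T cell gene mean. CP-Dox replicate 2 had muscle markers at 0.48 and keratinocyte markers at 0.04, both between those of other CP-Dox tumours. The keratin genes Krt8 and Krt18 had their highest signal there, at 12.05 and 10.33, where the T cell genes were lowest. In CP-Dox replicate 4, where the T cell genes were highest, Krt8 was at 9.21 and Krt18 at 5.74. In PBS replicates 1 to 4 Krt18 was at 8.75, 8.63, 8.13 and 7.32, falling as the T cell gene mean rose, and Krt8 fell likewise. In Dox tumours Krt18 was at 7.60, 9.25, 8.00 and 6.61, lowest in replicate 4, where the T cell gene mean was highest. Epcam and Cdh1 did not follow this order. Epcam was at 6.99, 6.33, 7.87 and 5.29 and Cdh1 at 7.03, 5.98, 7.88 and 6.29 in CP-Dox replicates 1 to 4. Both were highest in replicates 3 and 1, where keratinocyte markers were high. The part of tumour cells and of skin in these values was not tested.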

How the data were processed

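RNA from 12 tumours, 4 per group, was measured on Affymetrix expression arrays, 1 per tumour. Per the submitters' processing notes the authors used RMA and Partek, in versions and an order that no source here states, and deposited log2 signals. RMA fits quantiles across arrays, which can hide shifts common to most genes, and compresses changes near background. The values were used as deposited.

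Of 22690 probe sets, 64 controls, 691 with several symbols and 1555 with none were left out. Symbols came from the platform annotation, and 20351 of the 20380 kept matched the reference by gene ID, with 0 symbols changed. Each of 12393 genes was represented by its brightest probe set on average. One linear model with a mean per group was fitted over all arrays with limma 3.58.1 in R 4.3.3 (2-sided tests, Benjamini-Hochberg over all genes of a comparison, adjusted p under 0.05), and again over the 20380 probe sets. Of the 9 genes, 5 lay above the dimmest 40% of genes. The fit was checked on simulated data with the same spread in every group, which does not test the unequal spread of these tumours. Plots used Python 3.11.15 and matplotlib 3.10.9.

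The genes, lists and alternatives were chosen with earlier results of these data known. Named genes are all members, up to 4 genes of a list with the lowest p, and the 10 most alike in pattern; epithelial genes were named after their values were seen. Labels call replicates separate mice, and the reported fit did not pair the samples by their numbers. The number of arrays limits the precision.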

Additional observations from a re-analysis of the deposited data

How the results depend on the processing

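No alternative planned at the start called any of the 9 genes: 0 of 663 recomputed differences had an adjusted p under 0.05 (lowest 0.103, without CP-Dox replicate 2). Signs were not stable, with 80 of the 663 opposite to the reported one. Many of the 663 could not turn sign, so that this share understates the instability. Stricter cut-offs, choices of the variance estimate, the replicate block and the fit of only the groups compared leave a difference as it was. So does leaving out an array of the group not compared. The stricter cut-offs also could not call a gene that had not passed before. Another quantile normalization gave -0.021 for Cd3e in CP-Dox against PBS and -0.0031 for Cd8b1 in CP-Dox against Dox. Median centring gave -0.023 for Cd3e in CP-Dox against PBS, and -0.012, -0.045 and -0.00057 for Cd3d, Cd8b1 and Cd2 in CP-Dox against Dox. For Zap70, the mean of both probe sets gave 0.15 and 0.12, and the more variable one 0.36 and 0.30, in CP-Dox against PBS and against Dox. Array weights gave 0.00010 for Cd4 and 0.10 for Cd5 in CP-Dox against PBS, -0.0054 for Zap70 in Dox against PBS, and 0.16, 0.16 and 0.046 for Cd3e, Cd4 and Cd5 in CP-Dox against Dox.

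Leaving out each array in turn turned the sign of these differences, which ranged as follows in CP-Dox against PBS: Cd2 -0.14 to 0.83, Cd3d -0.19 to 0.63, Cd3e -0.12 to 0.26, Cd3g -0.039 to 0.91, Cd4 -0.15 to 0.028, Cd5 -0.37 to 0.18, Cd8a -0.012 to 0.42, Zap70 -0.11 to 0.0063. In Dox against PBS it ranged from -0.056 to 0.42 for Cd2, -0.20 to 0.35 for Cd3d, -0.054 to 0.15 for Cd3e, -0.15 to 0.60 for Cd3g, -0.21 to 0.045 for Cd4, -0.10 to 0.23 for Cd5, -0.078 to 0.13 for Cd8a and -0.048 to 0.072 for Zap70. In CP-Dox against Dox it ranged from -0.31 to 0.67 for Cd2, -0.28 to 0.54 for Cd3d, -0.17 to 0.21 for Cd3e, -0.21 to 0.72 for Cd3g, -0.12 to 0.13 for Cd4, -0.44 to 0.11 for Cd5, -0.053 to 0.38 for Cd8a and -0.19 to 0.40 for Cd8b1. The sign held for Cd8b1 in CP-Dox against PBS (0.022 to 0.66) and in Dox against PBS (0.013 to 0.46), where its size moved widely, and for Zap70 in CP-Dox against Dox (-0.097 to -0.023).

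The count of 2 signalling genes called in CP-Dox against PBS was 1 with median centring, with the most variable probe set, at an adjusted p under 0.01 and at a 2-fold change, 10 with array weights, and 1 to 14 without single arrays (14 without CP-Dox replicate 2, otherwise 1 or 2). In CP-Dox against Dox the count of 0 was 3 with array weights and 0 to 4 without single arrays. Of all 12393 genes, array weights called 2665 against PBS and 1960 against Dox. Leaving out CP-Dox replicate 2 called 2363 and 1150. An alternative chosen after seeing the data left out CP-Dox replicate 2 and kept the most variable probe set. It called 2 of the 9 genes in CP-Dox against PBS (Cd8a 0.98, Zap70 0.71) and 1 in CP-Dox against Dox (Zap70 0.65), with 13 and 3 signalling genes. With the brightest probe set and without CP-Dox replicate 2, 19.1% and 9.28% of all genes passed in these comparisons. The alternative gave 0.028 for Cd4 and 0.18 for Cd5 in CP-Dox against PBS, and 0.21, 0.077 and 0.11 for Cd3e, Cd4 and Cd5 in CP-Dox against Dox. The causes were not tested.

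With the replicate number as a block, 0 of the 9 genes and 2 and 0 signalling genes were called in CP-Dox against PBS and against Dox, and over all genes 995 (691 without the block) and 8 (28). Deviations of same-numbered arrays correlated between -0.31 and 0.51. Best with their own number were 3 of 4 CP-Dox arrays in Dox, 1 of 4 CP-Dox arrays in PBS and 2 of 4 Dox arrays in PBS. In these comparisons the median r was 0.36, 0.16 and 0.06 for same-numbered arrays, against -0.07, -0.14 and -0.03 for the others. Whether same-numbered arrays share a batch was not tested. The background itself moved: in CP-Dox against PBS, 691 of all genes were called as reported, 2665 with array weights, 198 with only the 2 groups fitted, and 214 (without CP-Dox replicate 3) to 2363 (without CP-Dox replicate 2) when 1 array was left out. In CP-Dox against Dox the count of 28 was 1960, 0 and 1 to 1150 under the same alternatives.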
